A study of Mus musculus with 8 samples.

Results

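The collagen genes of the outflow tract and right ventricle (OFT/RV) were taken as all gene symbols that name a collagen alpha chain (Col, a type number, a and a chain number), and 44 of the 20701 gene symbols in the deposited table did so. They were listed with 60 of the 31507 transcripts, 15 of the 44 had more than 1 transcript, and the transcript with the highest mean count stood for each gene. By class, 11 genes encode chains of fibrillar collagens, 8 encode chains of basement membrane collagens and 25 encode other collagens. The filter on low counts left 31 of the 44 among 13769 genes tested. With edgeR no collagen passed an adjusted p under 0.05, and the lowest adjusted p-values belonged to Col12a1 and Col9a1, whose means in the mutant embryos were 36.8% and 24.0% of the control means.

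Polyadenylated RNA was sequenced from single mouse embryos of the C57BL/6 strain at stage E10.5. The 4 control embryos (CTRL) were wild type, and the 4 Isl1_hypo embryos carried Isl1 f;neo/f;neo, a pair of hypomorphic alleles of the LIM-homeodomain factor gene Isl1. These alleles lower Isl1 without removing it. Every tissue of the embryo carries them, so that the reduction need not be limited to the OFT/RV, but Isl1 was measured here in the OFT/RV only. The comparison asked which genes differ in tissue that derives from Isl1-expressing cardiac progenitors when Isl1 is reduced.

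Collagens are matrix proteins built of chains that wind into a triple helix. In the helix glycine, the only residue small enough for its centre, returns at regular steps and gives the repeat Gly-X-Y. Fibrillar collagens have a long unbroken helix and pack side by side into fibrils. Collagens of basement membranes have many breaks in the helix, and among them type IV builds the flexible network. Fibril-associated collagens with interrupted triple helices (FACIT) sit on the fibril surface. In the embryonic heart, collagens are found in the basement membranes of myocardium and endocardium and in the cushions that later form valves and septa.

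The classes differ in the coding sequence itself, and the exons that follow are shown because they come from members with low p-values and from Col1a1, the best known fibrillar chain. The longest uninterrupted Gly-X-Y run had a median of 338 triplets in the 11 fibrillar genes, of 41 in the 8 basement membrane genes and of 57 in the 9 FACIT genes. Runs of at least 3 triplets were counted, and the basement membrane genes had a median of 23.5 runs per protein while the fibrillar genes had 3. Many exons of fibrillar genes have 54 bases and code for 6 triplets, and exons of this length made up 305 of their 649 coding exons but 16 of 378 in the basement membrane genes and 109 of 431 in the FACIT genes. All sequences are from the mm9 genome (NCBIM37), written 5′ to 3′ on the coding strand, and capitals mark the glycine codon that opens each triplet. For each of the first 5 genes it is the first coding exon of this kind, all of it coding sequence. The Col1a1 exon lies at chr11:94801218-94801271 on the plus strand (coding exon 8 of 51), that of Col5a1 at chr2:27820771-27820824 on the plus strand (15 of 66), that of Col11a1 at chr3:113811199-113811252 on the plus strand (15 of 67), that of Col9a1 at chr1:24208853-24208906 on the plus strand (11 of 38) and that of Col12a1 at chr9:79462156-79462209 on the minus strand (54 of 65).
Col1a1: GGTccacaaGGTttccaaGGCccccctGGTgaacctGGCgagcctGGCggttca
Col5a1: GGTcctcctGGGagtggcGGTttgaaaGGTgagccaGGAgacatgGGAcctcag
Col11a1: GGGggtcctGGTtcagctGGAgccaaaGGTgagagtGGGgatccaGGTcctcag
Col9a1: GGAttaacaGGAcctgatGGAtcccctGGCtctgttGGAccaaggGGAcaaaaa
Col12a1: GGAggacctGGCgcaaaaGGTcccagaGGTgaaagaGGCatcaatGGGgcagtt
For Col4a1 the stretch shown is instead a break of 2 codons between runs, with 3 triplets on either side, at chr8:11235141-11235200 on the minus strand in coding exon 21 of 52.
Col4a1: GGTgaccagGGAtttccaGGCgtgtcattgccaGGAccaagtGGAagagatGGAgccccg
The reading frame of the Col4a1 helix is kept across this break, but the regular spacing of glycine is not.

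The libraries held between 29748458 and 46678973 counts in CTRL and between 18422245 and 33050298 in Isl1_hypo. Isl1 itself was at 47.2 ± 13.3 CPM (counts scaled to the TMM-adjusted library size) in CTRL and 9.67 ± 2.83 in Isl1_hypo (SD, n = 4), and edgeR gave a log2 fold change of −2.29 with an SE of 0.256 and an adjusted p of 0.0077. Myocardial markers were present throughout, and their summed level ranged from 33720 to 41256 CPM in CTRL and from 34860 to 42518 in Isl1_hypo. More than any other marker Actc1 made up these sums, and single markers differed. Nppa was higher (log2 fold change 1.13, adjusted p = 0.0303, edgeR), and Ttn (−0.90, adjusted p = 0.173, edgeR) and Myh7 (−0.49, adjusted p = 0.165, edgeR) had every mutant library below every control library. Globin genes summed to between 2019.7 and 11896.5 CPM in CTRL and to between 11869.5 and 25516 in Isl1_hypo. Because whole tissue was measured, fewer cells of a type and less RNA per cell cannot be told apart.

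Collagen transcripts took 0.396% ± 0.0656 of all counts in CTRL and 0.290% ± 0.132 in Isl1_hypo (SD, n = 4). Levels were compared between genes as CPM per kilobase of transcript. On this scale Col3a1 was the highest collagen of the control OFT/RV at 143 ± 27.4 (SD, n = 4), followed by Col18a1 at 98.6 ± 21.4 and Col2a1 at 95.04 ± 21.1. Col3a1 encodes the chain of type III collagen, a fibrillar collagen of distensible tissues. Col18a1 encodes the basement membrane collagen from which endostatin is released, and Col2a1 encodes the chain of type II collagen, best known from cartilage but also made in the early heart. Next came Col1a1 at 75.2 ± 10.48, Col4a1 at 54.4 ± 15.05, Col1a2 at 44.2 ± 17.6, Col5a1 at 37.8 ± 3.20 and Col4a2 at 33.8 ± 6.06. Of these neighbours in the order, each differed from the next by less than the larger of the pair's SDs, except Col3a1 from Col18a1 and Col1a1 from Col4a1. These 8 genes made up 83.6% of the summed control level of all 44 collagens.

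By class, fibrillar genes held 60.4% ± 2.87 of the summed collagen level in CTRL, basement membrane genes 28.9% ± 2.69 and other collagens 10.7% ± 0.395. The shares in Isl1_hypo were 63.5% ± 4.77, 27.0% ± 4.37 and 9.45% ± 1.82, so the makeup of the collagen pool by class differed between the groups by less than the spread among Isl1_hypo libraries. The summed level of all collagens was 697 ± 98.2 CPM per kilobase in CTRL and 524 ± 232 in Isl1_hypo. The 4 control sums lay between 633 and 843 and the 4 mutant sums between 268 and 830, and the groups overlapped. The fibrillar sums were 419 ± 39.4 and 339 ± 176, and the mutant libraries (169 to 584) spanned the control range (390 to 475). The basement membrane sums were 203 ± 47.7 and 139 ± 50.5 and overlapped (174 to 274 and 66.6 to 182), and those of the other collagens 74.5 ± 13.1 and 46.6 ± 13.3. For the other collagens each mutant library (31.9 to 64.1) lay below each control library (65.5 to 93.6). This difference lay mostly in 3 FACIT genes, Col9a1 (means of 20.03 and 4.82), Col9a3 (9.10 and 3.20) and Col12a1 (5.05 and 1.86), and 7 of the 18 tested genes of the class had log2 fold changes above 0.

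**Figure D1:**
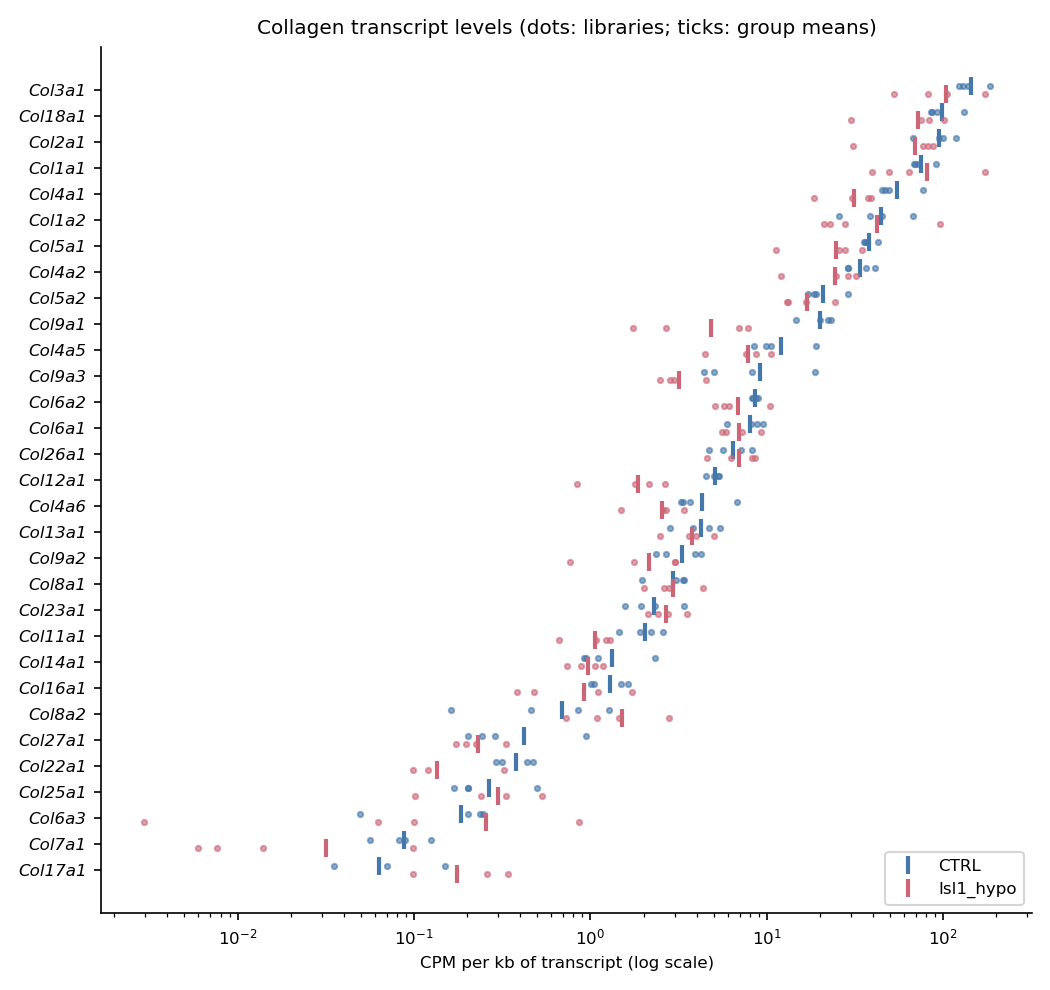
Level of each of the 31 tested collagens (CPM per kilobase of transcript, log scale), ordered by the control mean. Dots are single libraries, ticks are group means, blue is CTRL and red is Isl1_hypo, and libraries at 0 are not drawn. Col3a1 leads in both groups, and Col9a1 and Col12a1 show red dots wholly to the left of the blue ones.

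The 13 collagens that did not pass the filter were scarce. They were Col10a1, Col11a2, Col15a1, Col19a1, Col20a1, Col24a1, Col28a1, Col4a3, Col4a4, Col5a3, Col6a4, Col6a5 and Col6a6. Their highest level in any library was 1.30 CPM and their highest control mean 0.0597 CPM per kilobase, and each of the 13 had no count in at least 1 library. With 3 counts as the limit of detection, the libraries could show levels down to between 0.0641 and 0.163 CPM, which covers counting error only. Col11a2, a partner chain of Col11a1, had 1.18, 0.148, 0 and 0 CPM in CTRL and 0.163, 0, 0 and 0.138 CPM in Isl1_hypo. Col5a3, a partner chain of Col5a1, lay between 0.0427 and 0.273 CPM in CTRL and between 0 and 0.375 CPM in Isl1_hypo. Col4a3 and Col4a4, the chains of the mature kidney glomerulus, were likewise almost without counts, and these 13 genes were not tested between the groups over all 8 libraries with this filter.

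Each tested collagen was compared between Isl1_hypo and CTRL with the quasi-likelihood test of edgeR over all tested genes. With p-values adjusted by the Benjamini-Hochberg method, 0 of the 31 collagens passed 0.05 in either direction, where 0.123% of all tested genes passed as lower and 0.145% as higher. DESeq2 called 5 collagens lower (Col11a1, Col12a1, Col4a1, Col9a1 and Col9a3) and limma-voom with sample quality weights called 2 (Col12a1 and Col9a1), out of 319 and 134 genes called in all. At an unadjusted p under 0.05 edgeR placed 7 collagens lower and 0 higher. The 7 are 22.6% of the tested collagens, beside 6.17% of all tested genes lower and 5.69% higher at that threshold. In 5 collagens every mutant library lay below every control library, and in 0 every mutant library lay above, beside 4.44% and 4.06% of all tested genes. The 5 were Col12a1, Col9a1, Col11a1, Col4a1 and Col5a1. The fitted log2 fold change was below 0 in 23 of 31 collagens (74.2%), beside 49.1% of all tested genes, and its median was −0.45, beside 0.01 for all tested genes. With limma-voom, which weights the libraries by quality, the median over collagens was −0.24, and by class it was −0.23 for fibrillar, −0.31 for basement membrane and −0.26 for other collagens. Without any filter on low counts, 33 of all 44 collagens were below 0, their median was −0.49, and 9 had an unadjusted p under 0.05 as lower (all genes 5.95%).

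**Figure D2:**
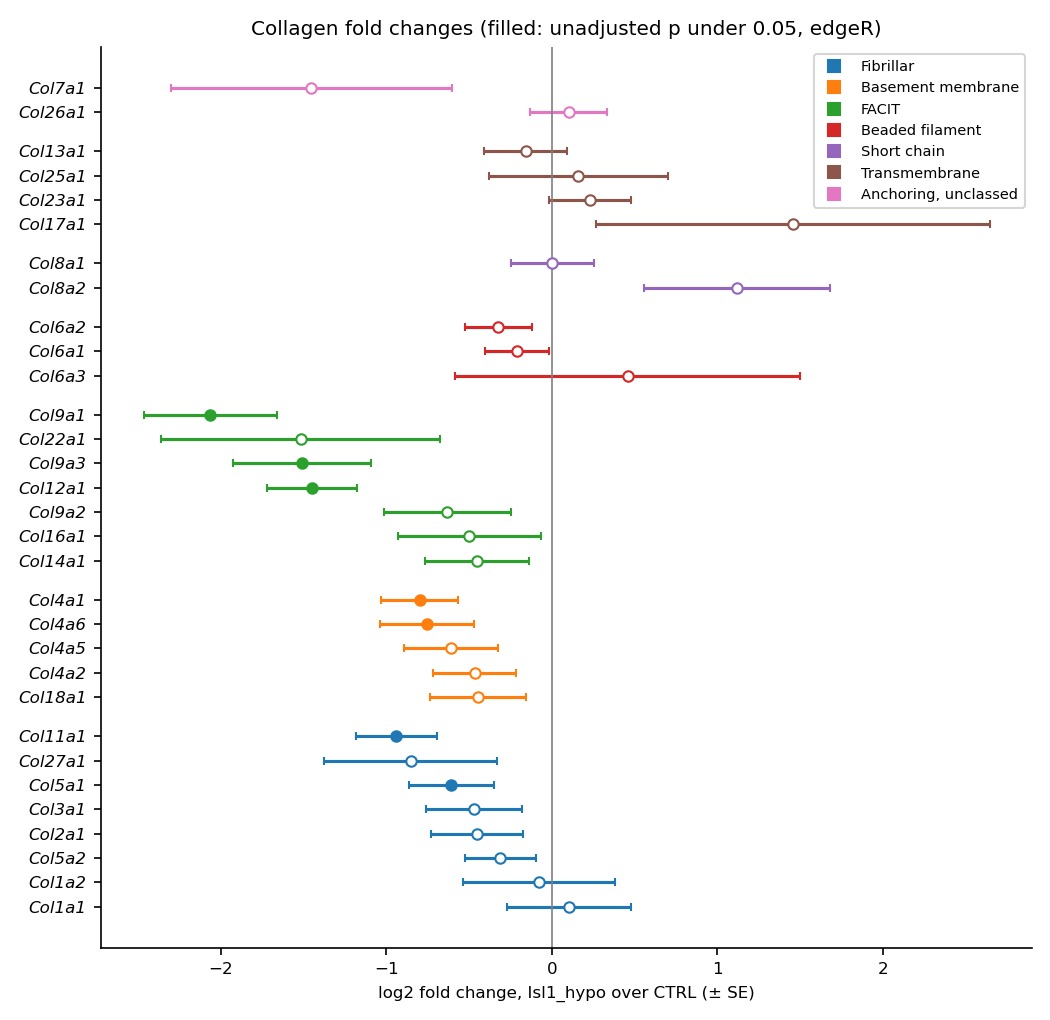
Fitted log2 fold change of Isl1_hypo over CTRL (horizontal axis, bars are ± SE) for the 31 tested collagens, grouped and coloured by class. Filled points have an unadjusted p under 0.05. The 7 filled points all lie left of 0, and all 7 FACIT genes and all 5 basement membrane genes have values below 0.

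FACIT genes had the lowest median of any subclass. All 7 tested members were below 0, from −2.06 (Col9a1) to −0.45 (Col14a1), with a median of −1.45, and 3 had an unadjusted p under 0.05. Col12a1 encodes type XII collagen, which binds fibrils of type I collagen in tissues under tension. It was at 62.5, 52.5, 61.7 and 58.7 CPM in the 4 CTRL replicates, in order, and 31.0, 25.0, 9.77 and 20.9 CPM in those of Isl1_hypo. The control libraries were close together and the groups did not overlap. The mean was 58.9 ± 4.52 CPM in CTRL and 21.7 ± 8.95 in Isl1_hypo (SD, n = 4), which edgeR fitted as a log2 fold change of −1.45 (SE 0.272, 95% interval −2.04 to −0.85, adjusted p = 0.0577). With 1 library left out the adjusted p of Col12a1 (edgeR) was 0.0070 without Isl1_hypo replicate 3, the lowest library (log2 fold change −1.20), 0.0400 without Isl1_hypo replicate 1, and between 0.0966 and 0.175 in the other 6 fits. Col12a1 lies at chr9:79446798-79566638 on the minus strand, and no other annotated gene shares its exons.

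The chains of type IX collagen, which decorates fibrils of type II collagen, are encoded by Col9a1, Col9a2 and Col9a3 on chromosomes 1, 4 and 2. Col9a1 (chr1:24184449-24259577, plus strand) was at 71.2, 68.1, 44.6 and 61.5 CPM in CTRL and at 24.1, 8.24, 5.34 and 21.4 CPM in Isl1_hypo. The highest mutant library lay below the lowest control library. The mean was 61.4 ± 11.9 CPM in CTRL and 14.8 ± 9.34 in Isl1_hypo (SD, n = 4), which edgeR fitted as a log2 fold change of −2.06 (SE 0.404, 95% interval −2.95 to −1.18, adjusted p = 0.0657). With 1 library left out its adjusted p (edgeR) was 0.0478 without Isl1_hypo replicate 3 and between 0.0547 and 0.174 in the other 7 fits. The other Col9a1 transcript, of 3848 bases, gave nearly the same counts as the one of 3063 bases used here (2140 and 2226 in CTRL replicate 1, 170 and 169 in Isl1_hypo replicate 3), because transcripts of 1 gene share reads in this table.

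Col9a3 (chr2:180332495-180356894, plus strand) was at 52.9, 14.2, 23.1 and 12.3 CPM in CTRL and at 12.7, 7.91, 6.99 and 8.37 CPM in Isl1_hypo. CTRL replicate 1 stood far above the other controls, and the lowest control library lay below the highest mutant library. The log2 fold change was −1.51 (SE 0.416, adjusted p = 0.2, edgeR), and −0.89 without CTRL replicate 1 (adjusted p = 0.329, edgeR). Its exons overlap those of Tcfl5 on the other strand over 6.07% of their length, and the counts did not use strand. Col9a2 was scarcer, at 11.5, 6.37, 10.7 and 7.27 CPM in CTRL and at 8.15, 8.17, 2.09 and 4.81 CPM in Isl1_hypo, and the groups overlapped (log2 fold change −0.63, SE 0.384, adjusted p = 0.538, edgeR, and −0.35 without Isl1_hypo replicate 3). The ratio of Col9a1 to Col9a2, per kilobase, had a mean of 6.53 in CTRL (3.70 to 9.47) and of 2.43 in Isl1_hypo (0.894 to 3.94). The ratio of Col9a1 to Col2a1, the fibril chain that type IX collagen covers, was between 0.154 and 0.298 in the 4 control libraries and between 0.0349 and 0.0957 in the 4 mutant libraries, with no overlap. Cartilage markers were scarce, with sums of 7.77 to 11.4 CPM over 6 genes in CTRL and of 5.70 to 11.3 CPM in Isl1_hypo. Of the 4 tested, 3 were below 0, with a median log2 fold change of −0.64. Matn4 (−1.29, adjusted p = 0.475, edgeR), with means of 1.33 and 0.547 CPM, had no overlap, and Acan (−1.11, adjusted p = 0.484, edgeR), with means of 2.03 and 0.943 CPM, overlapped. The part of these markers in the values of Col9a1 and Col11a1 was not tested.

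Among the other FACIT genes, Col14a1 and Col16a1 had log2 fold changes of −0.45 (adjusted p = 0.587) and −0.50 (adjusted p = 0.672), and Col22a1, the scarcest of the 7 at 2.30 CPM in CTRL, had −1.52 (SE 0.844, adjusted p = 0.504). None of these 3 passed the unadjusted threshold, and their groups overlapped.

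**Figure D3:**
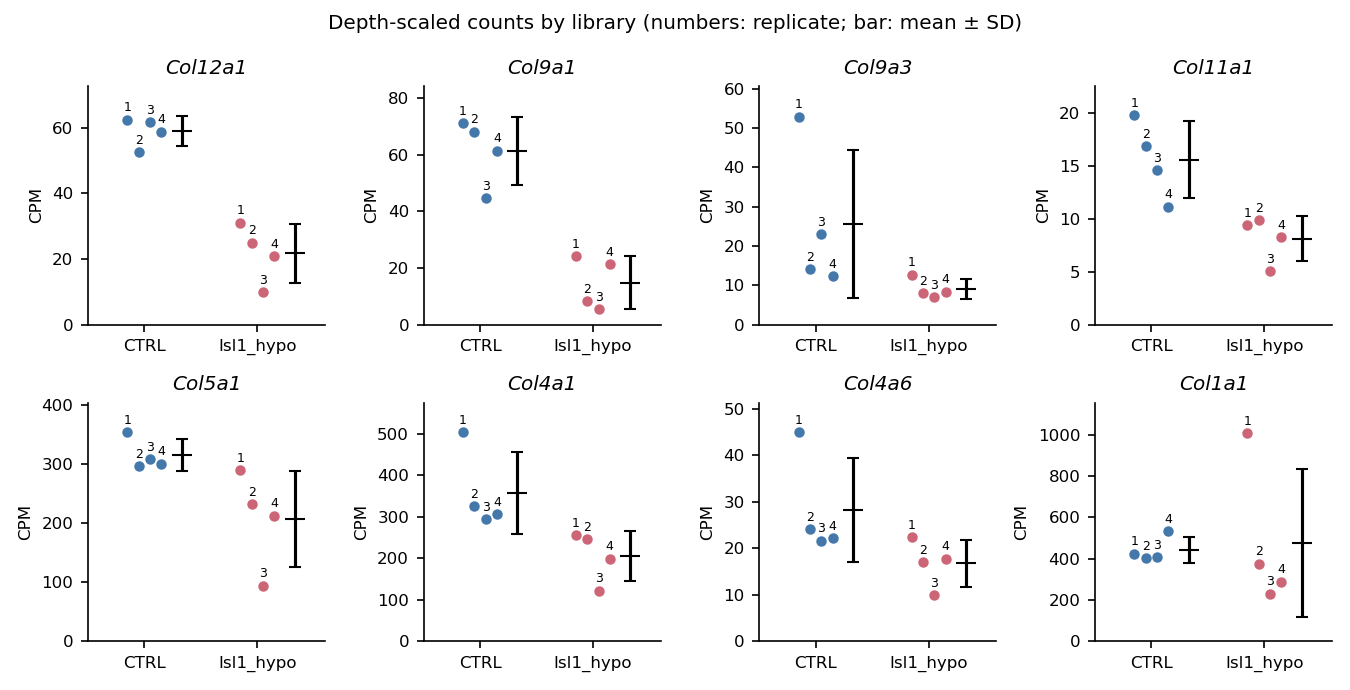
CPM in each library for the 7 collagens with an unadjusted p under 0.05 and for Col1a1, with a vertical axis from 0 in each panel. Points carry the replicate number, and the black bar gives the mean ± SD of 4 libraries. Isl1_hypo replicate 3 is the lowest library in all 8 panels, and Isl1_hypo replicate 1 is the highest in the Col1a1 panel.

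All 5 tested basement membrane genes were below 0, from −0.80 (Col4a1) to −0.45 (Col18a1), with a median of −0.61. Col4a1 and Col4a2 encode the chains of the main type IV collagen network. They lie head to head on chromosome 8, Col4a1 at chr8:11198423-11312826 on the minus strand and Col4a2 at chr8:11312805-11449287 on the plus strand, with their annotated 5′ ends overlapping by 22 bases. Col4a1 was at 504, 325, 294 and 305 CPM in CTRL and at 255, 246, 121 and 199 CPM in Isl1_hypo. The groups did not overlap, although CTRL replicate 1 stood well above the other controls. The log2 fold change was −0.80 (SE 0.234, 95% interval −1.31 to −0.29, adjusted p = 0.222, edgeR). Without CTRL replicate 1 and Isl1_hypo replicate 3 it was −0.40 (adjusted p = 0.148, edgeR).

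Col4a2 was at 263, 234, 186 and 184 CPM in CTRL and at 185, 206, 77.1 and 159 CPM in Isl1_hypo, with overlap between the groups (log2 fold change −0.47, SE 0.25, adjusted p = 0.491, edgeR). The ratio of Col4a1 to Col4a2, per kilobase, was 1.35 to 1.87 in CTRL and 1.16 to 1.54 in Isl1_hypo, and overlapped. Col4a5 and Col4a6 form a second head-to-head pair, on the X chromosome, whose genes are 1308 bases apart, and encode chains of a minor type IV network. Col4a6 was at 45.0, 24.1, 21.7 and 22.1 CPM in CTRL and at 22.3, 16.9, 9.83 and 17.7 CPM in Isl1_hypo. Isl1_hypo replicate 1 lay within the control range, and the log2 fold change was −0.76 (SE 0.284, adjusted p = 0.321, edgeR). Without CTRL replicate 1 it was −0.44 (adjusted p = 0.576, edgeR), and its unadjusted p was above 0.05. Col4a5 was at 122, 67.6, 54.5 and 63.9 CPM in CTRL and at 56.2, 49.2, 28.9 and 68.0 CPM in Isl1_hypo, and the fitted log2 fold change of −0.61 had an SE of 0.283 (adjusted p = 0.43, edgeR). Y-linked genes summed to 204 CPM in 1 control embryo and to between 223 and 277 CPM in 3 mutant embryos, with at most 0.337 CPM in the other 4, and with their level as a covariate the median of the 5 genes was −0.40 and Col4a1 stood at −0.60 (adjusted p = 0.757, edgeR). In that fit Col4a6 was at −0.58 (adjusted p = 0.869, edgeR) with an unadjusted p above 0.05, and 5 collagens were lower at that threshold (all genes 3.39%). The unadjusted p of Col4a6 was also above 0.05 with limma-voom (−0.45).

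Col18a1 was at 652, 434, 460 and 425 CPM in CTRL and at 507, 415, 150 and 375 CPM in Isl1_hypo. The groups overlapped, and the log2 fold change was −0.45 (SE 0.292, 95% interval −1.09 to 0.194, adjusted p = 0.567, edgeR). It was −0.19 without Isl1_hypo replicate 3 (adjusted p = 0.75, edgeR) and −0.29 without CTRL replicate 1 (adjusted p = 0.795, edgeR). Without 1 library Col4a2 went to −0.24 (Isl1_hypo replicate 3) and Col4a5 to −0.30 (CTRL replicate 1).

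For the fibrillar genes the median log2 fold change was −0.46, and 7 of 8 were below 0. The 2 with an unadjusted p under 0.05 encode minor chains found inside fibrils. Col11a1 encodes a chain of type XI collagen, found inside fibrils of type II collagen. It was at 19.8, 16.9, 14.6 and 11.2 CPM in CTRL and at 9.40, 9.86, 5.06 and 8.23 CPM in Isl1_hypo. The groups did not overlap, and the log2 fold change was −0.94 (SE 0.244, 95% interval −1.48 to −0.41, adjusted p = 0.177, edgeR). Col5a1 encodes a chain of type V collagen, found inside fibrils of type I collagen. It was at 354, 297, 309 and 301 CPM in CTRL and at 289, 232, 93.8 and 212 CPM in Isl1_hypo. The lowest control library and the highest mutant library were only 297 and 289 CPM, so the groups were separate by a small margin (log2 fold change −0.61, SE 0.257, adjusted p = 0.381, edgeR). Without Isl1_hypo replicate 3 the value was −0.37 (adjusted p = 0.272, edgeR). The unadjusted p of Col5a1 was above 0.05 without any 1 of the 4 CTRL replicates or without Isl1_hypo replicate 4 (log2 fold changes −0.64 to −0.55), with the Y-linked level as a covariate (−0.53, adjusted p = 0.857, edgeR), and with the length trend removed, when its groups also overlapped (−0.49, adjusted p = 0.42, edgeR).

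Col5a2, the partner of Col5a1 in type V collagen, was at 189, 122, 124 and 113 CPM in CTRL and at 160, 109, 85.5 and 87.0 CPM in Isl1_hypo, with overlap (log2 fold change −0.31, SE 0.217, adjusted p = 0.587, edgeR). Col2a1 was at 601, 506, 480 and 343 CPM in CTRL and at 417, 391, 156 and 446 CPM in Isl1_hypo (log2 fold change −0.45, SE 0.278, adjusted p = 0.542, edgeR). Col3a1 was at 1010.5, 676, 714 and 760 CPM in CTRL and at 956, 580, 291 and 453 CPM in Isl1_hypo (log2 fold change −0.47, SE 0.288, adjusted p = 0.541, edgeR). In all 3 genes the groups overlapped, and 1 library moved each value. Without Isl1_hypo replicate 1 Col3a1 was at −0.84 (adjusted p = 0.17, edgeR) and Col5a2 at −0.54 (adjusted p = 0.255, edgeR), both with an unadjusted p under 0.05. Without Isl1_hypo replicate 3 Col3a1 was at −0.25, Col2a1 at −0.21 and Col5a2 at −0.21, and without CTRL replicate 1 Col5a2 was at −0.12. Col27a1, the remaining fibrillar gene tested, had a log2 fold change of −0.85 with a wide error (SE 0.523, adjusted p = 0.542, edgeR). It was at 7.17 CPM in CTRL replicate 1, at 1.54 to 2.17 CPM in the other 3 controls and at 1.30 to 2.51 CPM in Isl1_hypo.

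The chains of type I collagen, the most common collagen of adult connective tissue, changed sign with the libraries used. Col1a1 was at 425, 401, 409 and 533 CPM in CTRL and at 1008, 375, 230 and 288 CPM in Isl1_hypo. Isl1_hypo replicate 1 was the highest of all 8 libraries, and the other 3 mutant libraries lay below every control. Over all libraries the log2 fold change was 0.11 (SE 0.375, 95% interval −0.72 to 0.928, adjusted p = 0.937, edgeR), and without Isl1_hypo replicate 1 it was −0.57 (SE 0.172, adjusted p = 0.225, edgeR). Col1a2 was at 133, 231, 199 and 350 CPM in CTRL and at 496, 144, 109 and 118 CPM in Isl1_hypo, with log2 fold changes of −0.08 (adjusted p = 0.962, edgeR) over all libraries and −0.89 (adjusted p = 0.223, edgeR) without Isl1_hypo replicate 1. Its value was above 0 without CTRL replicate 4 (0.21) and without Isl1_hypo replicate 2 (0.071), 3 (0.14) or 4 (0.13). The ratio of Col1a1 to Col1a2, per kilobase, was 1.34 to 2.81 in CTRL and 1.79 to 2.30 in Isl1_hypo.

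The same library differed in other ways. Its 6 epithelial marker genes summed to 73.4 CPM, and those of the other 7 libraries to between 0.320 and 3.25 CPM. The proteoglycan gene Lum was at 196 CPM in it and at 7.92 to 24.6 CPM in the other 7 libraries, and Col6a3 was at 9.29 CPM in it and at 0.0316 to 2.66 CPM elsewhere. Without this library 14 collagens had an unadjusted p under 0.05 as lower (all genes 7.36%), 13 had no overlap between the groups (all genes 7.54%), and the median over collagens was −0.66. Whether the epithelial RNA has a part in these values was not tested.

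The remaining 11 collagens gave values on both sides of 0, and none had an unadjusted p under 0.05. The 4 transmembrane collagens had a median of 0.19, and the 3 tested chains of type VI collagen, the beaded filament collagen, a median of −0.21. Of these 3, Col6a2 was at −0.32 (adjusted p = 0.553, edgeR), Col6a1 at −0.21 (adjusted p = 0.692, edgeR) and Col6a3 at 0.46 (SE 1.04, adjusted p = 0.893, edgeR). Of the short-chain collagens, Col8a1 had nearly equal means in the 2 groups (log2 fold change 0.00, 95% interval −0.55 to 0.552). Col8a2, singled out after its values were seen, was at 0.704, 1.99, 3.70 and 5.54 CPM in CTRL and at 12.1, 6.26, 3.13 and 4.74 CPM in Isl1_hypo, with overlap (log2 fold change 1.12, SE 0.562, adjusted p = 0.467, edgeR). Its unadjusted p was under 0.05 with DESeq2, with limma-voom, with the trend on GC content removed and without CTRL replicate 4. The highest and lowest of the 11, Col17a1 at 1.46 and Col7a1 at −1.45, had means of under 1 CPM in both groups.

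Libraries differed in their overall collagen level, and the class values followed them. Relative to the control mean, the median log2 deviation of the 31 collagens was 0.36, −0.16, −0.10 and −0.06 across the CTRL replicates (1 to 4), and across those of Isl1_hypo it was −0.09, −0.27, −1.44 and −0.60. All tested genes had medians between −0.01 and 0.01 in the same libraries. CTRL replicate 1 was the highest library for 18 of 31 collagens (58.1%, beside 17.2% of all tested genes), and Isl1_hypo replicate 3 the lowest for 22 (71.0%, beside 28.4%). Isl1_hypo replicate 3 was lowest in each class, at −1.20 for fibrillar, −1.47 for basement membrane and −1.18 for other collagens. In each class the mutant libraries 2 to 4 lay below 0, and Isl1_hypo replicate 1 lay at 0.07, −0.27 and 0.26. Without Isl1_hypo replicate 3 the median log2 fold change over collagens was −0.24, without CTRL replicate 1 it was −0.29, and without both it was −0.09, when 6 collagens had an unadjusted p under 0.05 as lower (all genes 5.99%) and 2 as higher (all genes 5.60%). The 2 were Col8a2 and Col4a4, which had an unadjusted p under 0.05 as higher also without Isl1_hypo replicate 3 alone (all genes 4.97%). In both fits the groups of Col4a4 did not overlap, but this scarce gene did not pass the filter on low counts over all 8 libraries. It came into these fits only through the remaining mutant libraries (0.375 to 0.869 CPM, beside 0.124 to 0.221 CPM in CTRL). Its direction there was thus set by the filter and gives no support for a difference. By class, the medians without Isl1_hypo replicate 3 were −0.25 for fibrillar, −0.33 for basement membrane and −0.17 for other collagens, and without both libraries they were −0.065, −0.12 and −0.09.

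**Figure D4:**
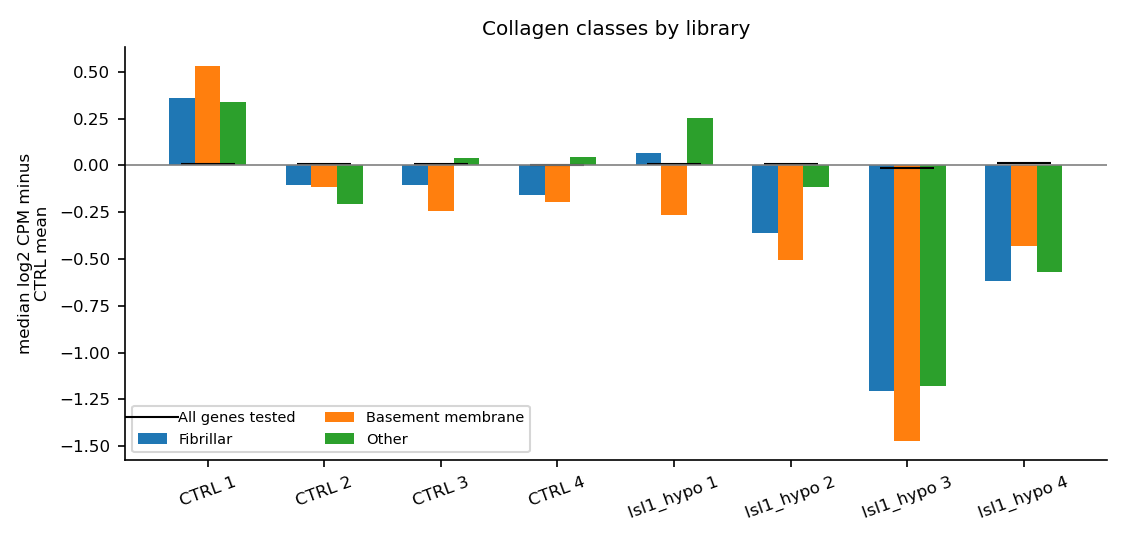
Median over the tested collagens of each class of log2 CPM minus the control mean (vertical axis), for the 8 libraries. Black lines give the same median over all 13769 tested genes, which lies near 0 in each library. CTRL replicate 1 is the highest library in each class and Isl1_hypo replicate 3 the lowest.

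Collagen transcripts were longer and richer in G and C than most, with a median length of 5634 bases and a GC content of 56.7%, beside 2924 bases and 50.5% for all tested genes. In Isl1_hypo replicate 3 the level of a gene relative to its mean over libraries had a slope of −0.11 in log2 CPM per doubling of length and of −0.29 per 10 points of GC content, and in the other 7 libraries the GC slope was −0.04 to 0.11. CTRL replicate 1 had the highest length slope, 0.12, and in the remaining 6 libraries it was −0.03 to 0.03. With the trend on GC content removed the median over collagens was −0.34 and 2 collagens, Col12a1 and Col9a1, had an adjusted p under 0.05 (0.0421 and 0.0473, edgeR), beside 0.356% of all tested genes. With the trend on length removed it was −0.38, and 0 did. With the globin level as a covariate it was −0.15, only Col12a1 and Col9a1 had an unadjusted p under 0.05, and all tested genes gave 1.58% lower at that threshold. The globin level and the group were nearly the same split of the libraries, so that their parts cannot be told apart.

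Markers of the cell types that make collagen were measured in the same libraries. Of 8 mesenchymal genes, 7 were below 0 with a median log2 fold change of −0.39, and their summed level was 1717 to 2749 CPM in CTRL, highest in replicate 1, and 1216 to 1808 CPM in Isl1_hypo, lowest in replicate 3. The 7 endothelial genes had a median of −0.20 with sums of 701 to 830 and 563 to 749 CPM, and the 4 smooth muscle genes a median of −0.32 with sums of 5106 to 7613 and 5178 to 7504 CPM. The 5 epicardial genes were all above 0 with a median of 1.07, and summed to 48.3 to 303 CPM in CTRL, lowest in replicate 1, and to 366 to 586 CPM in Isl1_hypo. The 5 neural crest genes summed to at most 3.57 CPM in CTRL and 5.96 CPM in Isl1_hypo, and the 5 tested of 6 macrophage genes were all below 0, and the 6 had sums of 8.03 to 18.8 and 2.21 to 12.5 CPM. No marker gene of these lists was at 0 in every library. The part of these markers in the collagen values, or in those of Dcn and the other pathway genes given below, was not tested.

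The wider collagen pathway was examined in 7 lists with 71 genes in the table, of which 58 were tested. With edgeR 0 passed an adjusted p under 0.05 (0.269% of all tested genes did), with DESeq2 5 did (Itga1, Pcolce2 and Loxl2 lower, Dcn and Epyc higher, beside 2.32% of all tested genes) and with limma-voom 2 did (Itga1 lower, Dcn higher, beside 0.973%). At an unadjusted p under 0.05, 13 were lower (22.4%, beside 6.17% of all tested genes) and 6 higher (10.3%, beside 5.69%), and the median log2 fold change was −0.08. Genes that act on the chains inside the cell came first. Of 19 hydroxylation and folding genes, 4 were lower and 1 higher at that threshold. P3h4, part of the complex that acts on helical lysine, had 131 ± 5.26 CPM in CTRL and 99.7 ± 12.9 in Isl1_hypo (SD, n = 4) with no overlap (log2 fold change −0.39, SE 0.11, adjusted p = 0.204, edgeR). P4ha3, a prolyl 4-hydroxylase subunit, and Plod1, a lysyl hydroxylase, had log2 fold changes of −0.67 (adjusted p = 0.209) and −0.41 (adjusted p = 0.264), also with no overlap. Of the 4 tested export genes, Klhl12, an adaptor for the ubiquitin ligase that enlarges transport vesicles for procollagen, was higher in each mutant library (log2 fold change 0.45, adjusted p = 0.277, edgeR).

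Outside the cell, 3 of 7 procollagen cleavage genes had an unadjusted p under 0.05, each as lower. Of all tested genes 6.17% were lower at that threshold, and in 4.44% every mutant library lay below every control library. Pcolce2, an enhancer of C-propeptide removal, was at 4.93, 5.68, 4.57 and 2.82 CPM in CTRL and at 1.57, 1.31, 1.55 and 1.38 CPM in Isl1_hypo, with no overlap (log2 fold change −1.63, SE 0.325, adjusted p = 0.0681, edgeR). Bmp1, the C-proteinase, was also separate (−0.76, adjusted p = 0.254), and Adamts2, the N-proteinase, overlapped (−1.04, adjusted p = 0.292). Among 5 cross-linking enzymes, Loxl2 was at 242, 165, 215 and 192 CPM in CTRL and at 146, 115, 57.6 and 130 CPM in Isl1_hypo, with no overlap (log2 fold change −0.86, SE 0.238, adjusted p = 0.201, edgeR). Of 9 tested turnover genes 4 were lower at that threshold, with Mmp14, a membrane-bound collagenase, at −0.59 (adjusted p = 0.287, edgeR). Of 8 tested receptors, only Itga1, the alpha chain of a collagen-binding integrin, had an unadjusted p under 0.05. It was at 75.0, 75.8, 81.1 and 68.0 CPM in CTRL and at 44.6, 55.9, 38.6 and 47.0 CPM in Isl1_hypo, with no overlap (log2 fold change −0.69, SE 0.13, adjusted p = 0.0577, edgeR).

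Of 6 tested small proteoglycans of the fibril surface, Dcn, Epyc, Lum and Ogn were higher at an unadjusted p under 0.05 (beside 5.69% of all tested genes) and none was lower. Fmod and Bgn had log2 fold changes of 0.58 and −0.07, and the median of the 6 was 1.68. Prelp did not pass the filter on low counts and went the other way. It was at 0.172 to 1.79 CPM in CTRL and at 0 to 0.163 CPM in Isl1_hypo. Lum stood out in Isl1_hypo replicate 1, at 196 CPM, and its other 3 mutant libraries (9.27 to 24.5 CPM) lay within the range of the controls (7.92 to 24.6 CPM). Dcn, which encodes decorin, was at 8.51, 21.9, 20.1 and 41.3 CPM in CTRL and at 119, 69.7, 93.6 and 60.0 CPM in Isl1_hypo. The groups did not overlap, and CTRL replicate 1 was the lowest library (log2 fold change 1.89, SE 0.385, adjusted p = 0.0727, edgeR). Epyc was detected at between 0 and 0.214 CPM in CTRL and at between 0.487 and 1.52 CPM in Isl1_hypo (adjusted p = 0.205, edgeR). Its control values were close to the limit of detection, and it passed the filter on low counts only through its mutant libraries. Its direction was thus set once it was tested, and its place among the higher genes gives no support.

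**Figure D5:**
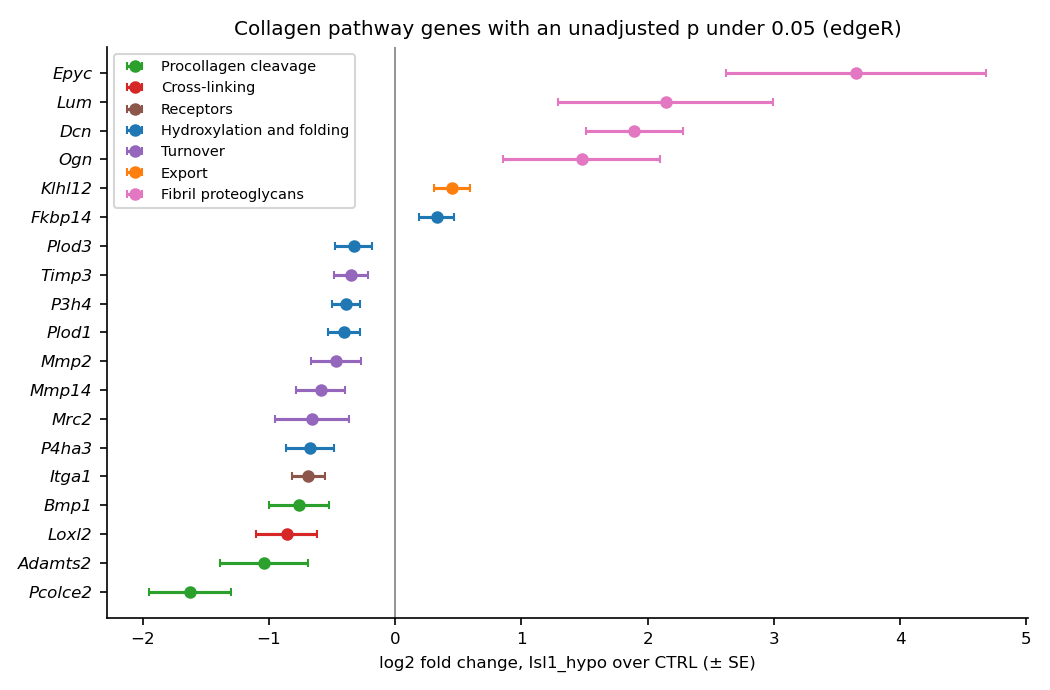
Fitted log2 fold change of Isl1_hypo over CTRL (± SE) for the 19 collagen pathway genes with an unadjusted p under 0.05, coloured by their list. The 13 genes left of 0 include cleavage, cross-linking, turnover and receptor genes, and 4 of the 6 right of 0 are fibril proteoglycans. Among these 4, Epyc passed the filter on low counts only through its mutant libraries.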

How the data were processed

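RNA of 8 single OFT/RV samples was sequenced on BGISEQ-500 by the authors, aligned with STAR to mm9 and counted by HOMER over the exons of RefSeq transcripts, ignoring strand. The counts they deposited are raw whole numbers. The authors also computed RPKM with edgeR and ran DESeq2, whose normalized mean signal, log2 fold change, standard error, Wald score and p-value are also deposited. None of these columns was used here. Where a symbol had several transcripts, that with the largest mean count stood for it, genes were filtered with filterByExpr, libraries were scaled by TMM, and Isl1_hypo was compared with CTRL by the quasi-likelihood test of edgeR 4.0.16 (R 4.3.3), with Benjamini-Hochberg adjustment over 13769 genes and no covariates. The test was checked on simulated counts. CPM values use TMM-scaled library sizes, and log2 CPM a prior count of 2. DESeq2 1.42.0 and limma 3.58.1 served as alternatives, beside other size factors and filters, the longest transcript, a replicate block, globin or Y-linked covariates, removal of length or GC trends (loess, span 0.5) and left-out libraries. Removal of the GC trend and leaving out 2 libraries together were added after seeing the data. Collagens with an unadjusted p under 0.05 or no overlap, the 8 highest in CTRL and their partner chains are given by library, and up to 12 pathway genes by p. Members and lists were chosen with earlier results of these data known. Exons are from GENCODE vM1 on mm9, which held all 44 collagens. GC content was found for 91.4% of tested genes. Single embryos served as replicates.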

Additional observations from a re-analysis of the deposited data

Results flagged for a closer look

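Among 40 sets of 4 libraries, 7 had an extreme library whose gap to the next was above the 95% critical value of Dixon's test. Chance would give about 2 if the sets were independent. They are not, since all come from the same 8 libraries and the sums hold the same genes, so the 7 cannot be read against the 2. In 6 of the 7 the library was CTRL replicate 1. It held 504 CPM of Col4a1 (other controls 294 to 325), 45.0 CPM of Col4a6 (21.7 to 24.1), 652 CPM of Col18a1 (425 to 460) and 189 CPM of Col5a2 (113 to 124). Its summed level per kilobase was 843 over all collagens, where the other controls had 633 to 665, and 274 over the basement membrane collagens, where they had 174 to 187. The remaining one was Isl1_hypo replicate 1, with 496 CPM of Col1a2 beside 109 to 144 in the other mutant libraries.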

How the results depend on the processing

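Over 21 alternatives, 310 of 336 comparisons of single collagens kept their direction and their side of an adjusted p of 0.05, 16 passed it while keeping their direction, and 10 changed sign. The number of collagens with an adjusted p under 0.05 was 0 in the report (all tested genes 0.269%), 5 with DESeq2 (2.32%), 2 with limma-voom (0.973%), 2 with no filter on low counts (0.275%), 1 with at least 10 counts in every library (0.394%), 2 with the GC trend removed (0.356%), 1 without both Isl1_hypo replicate 3 and CTRL replicate 1 (0.353%), and 0 to 2 with 1 library left out (0.0288% to 0.345%). Leaving out 1 library gave 5 to 14 collagens lower at an unadjusted p under 0.05 (all genes 4.98% to 7.36%) and 5 to 13 without overlap (all genes 5.71% to 7.54%, beside 4.44% with 4 libraries in each group), the highest values being those without Isl1_hypo replicate 1. With the globin level as a covariate 2 collagens were lower at that threshold (all genes 1.58%), the basement membrane median was −0.053, and Col18a1 (0.038), Col2a1 (0.26), Col4a2 (0.066) and Col5a2 (0.10) changed sign. The type I chains also changed sign, Col1a1 ranging from −0.57 to 0.33 and Col1a2 from −0.89 to 0.21 with 1 library left out. Apart from the globin covariate, whose split of the libraries was nearly that of the groups, the cause of these changes was not tested. Col12a1 and Col9a1 stayed below 0 in every alternative, from −1.67 to −1.17 and from −2.40 to −1.70, with adjusted p from 1.7e-05 and 0.0056 up to 1.0.

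Over all tested genes, the deviations of same-numbered libraries from their group means correlated by −0.02 to 0.02. Libraries with unlike numbers were not compared, so this cannot exclude a pairing by replicate number. For collagens, replicate 1 had the highest median log2 deviation in both groups (0.36 in CTRL and −0.09 in Isl1_hypo). The SE of Col4a1 was 0.152 with a replicate block and 0.234 without it (edgeR). With the replicate block 0 collagens and 0 of all tested genes had an adjusted p under 0.05 (edgeR), 13 collagens were lower at an unadjusted p under 0.05 (all genes 6.41%), and Col1a1 was at −0.16. The 13 collagens that were not tested had mean levels of 0.0692 to 0.315 CPM.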
